A study of Homo sapiens with 12 samples.

Results

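The unfolded protein response (UPR) and the folding machinery of the endoplasmic reticulum (ER) were followed in 34 genes, taken as the rows of both deposited tables whose symbol matched a fixed list, of 26485 genes in each table. All 34 were found in both tables. The RNA was that of HEK293T, an established line from human embryonic kidney with a viral large T antigen, transfected with polyethylenimine. The plasmids were of the PX330-GFP type and encoded a single guide RNA (sgRNA) named 6T or one against luciferase, each with or without the Cas9 nuclease. The 12 polyA libraries formed 4 groups of 3: for the 6T sgRNA 1 group had Cas9 and 1 lacked it, and so it was for the luciferase sgRNA. All groups had a plasmid transfection, and a group of untransfected cells was not analysed here. The labels do not say whether libraries of a group came from separate cultures, so p-values measure only the spread between these samples.

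The ER stress response is set off when unfolded proteins build up in the ER lumen. Of its 3 sensor branches, ERN1 (IRE1) splices the XBP1 mRNA, EIF2AK3 (PERK) slows translation, and ATF6 is cut in the Golgi to release a transcription factor. The transcription factors of these branches raise chaperones such as HSPA5 (BiP), disulfide isomerases and the proteins of ER-associated degradation, which returns misfolded proteins to the cytosol for destruction. HSPA5 itself binds the sensors and holds them inactive when little unfolded protein is present. Gene counts cannot show the splicing of XBP1, the cleavage of ATF6 or the activity of the kinases.

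For each sgRNA the authors deposited the mean normalized read counts of a condition A and a condition B, and the file headers do not state which of them had the nuclease, nor whether A and B have the same meaning for both sgRNAs. A positive difference means higher in B than in A. The whole reads of the single libraries were worked out from these means, and the libraries are numbered within each condition (A1, A2, A3) in order of size factor, which is only a name. Libraries held from 5884892 to 8294722 reads in genes, except for condition B under the Luciferase sgRNA, with 19399375 to 38076941. Depth therefore cannot be told apart from condition under that sgRNA, nor from the sgRNA within condition B. All 34 genes had library values in all 12 libraries, and the lowest count of any of them was 22 reads, of DERL3. Library A1 under the Luciferase sgRNA stood apart from the rest over all genes, with a loading of 0.723 on a first principal component that held 42.48% of the variance, and library A2 under the 6T sgRNA lay at the other end, at −0.468. All 11 HEK293T markers in the list had a mean of 10 or more normalized reads, with summed levels of 13676 to 16041 per library. Among markers of other cells, CD3E was at 0 in every library, and PTPRC, COL1A2, PECAM1, VWF and ALB reached at most 12.8 normalized reads in every library, whereas COL1A1 had 457 to 595, COL3A1 69.1 to 120.0 and CD68 33.4 to 57.6. In bulk RNA, fewer cells of a type and less RNA per cell cannot be told apart.

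The promoters of several of these genes share a sequence by which the response is known to act, the ER stress response element, to which ATF6 and XBP1 bind together with NF-Y. It reads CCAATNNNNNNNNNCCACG. RefSeq windows of 250 bases before to 50 bases after a start site, on GRCh38.p14, were found for 31 of the 34 genes, and were searched on both strands. The full element was present in 7 of the 31 genes (22.6%), against 25 of 27305 genes (0.0916%) and 27 of 35116 windows (0.0769%) overall. The shorter CCACG, which is the end of the full element, occurred in 23 of the 31 genes (74.2%), against 42.1% of all genes and 38.1% of all windows. The matches are printed below, 5′ to 3′ on the gene's strand with the element in capitals, because they show which of the measured genes carry the common target sequence. In CALR, CRELD2 and the proximal site of HSP90B1 the capitals are the reverse complement of the element.
CALR, chr19:12938379-12938407, plus strand: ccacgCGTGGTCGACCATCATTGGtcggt
CANX, chr5:179698773-179698801, plus strand: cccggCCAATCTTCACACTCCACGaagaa
CRELD2, chr22:49918549-49918577, plus strand: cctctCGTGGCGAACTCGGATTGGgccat
HSP90B1 distal, chr12:103930211-103930239, plus strand: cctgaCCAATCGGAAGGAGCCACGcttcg
HSP90B1 proximal, chr12:103930316-103930344, plus strand: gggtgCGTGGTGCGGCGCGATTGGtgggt
HSPA5, chr9:125241386-125241414, minus strand: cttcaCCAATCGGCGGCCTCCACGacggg
PDIA6, chr2:10812848-10812876, minus strand: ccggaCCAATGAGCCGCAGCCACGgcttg
XBP1, chr22:28800598-28800626, minus strand: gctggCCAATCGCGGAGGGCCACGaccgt
The matches ended 34 (XBP1) to 207 (CALR) bases before the RefSeq start site. HSP90B1 held 2 of them. In GENCODE v29 the stretch of CANX and the distal stretch of HSP90B1 lie wholly, and the proximal stretch of HSP90B1 lies for 23 of its 29 bases, in a 5′ untranslated exon of another transcript of the same gene, whereas those of PDIA6, HSPA5, CALR, XBP1 and CRELD2 overlap no exon of their gene. A match is a description of the letters only. The shares were not tested, because the element was known from this response beforehand. Under the 6T sgRNA 3 of the 7 genes with the element had a higher mean in condition B (median log2 fold change −0.0083), and under the Luciferase sgRNA also 3 of 7, with a median of −0.086. The 24 genes whose window lacked it had medians of −0.013 and −0.082 in the authors' deposited tables. Between the sgRNAs within condition B, all 7 genes with the element had a lower mean of log2 values under the Luciferase sgRNA (median −0.046). So did 15 of the 24 without it (median −0.050) and 7103 of 14009 genes in all, and limma called none of them. Depth also differed between these groups and cannot be told apart from the sgRNA.

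The comparison between conditions asked whether the presence of Cas9 changes host gene expression. None of the 34 UPR genes passed the adjusted test under either sgRNA. In the authors' deposited DESeq test the adjusted p was 1 for all 34 under the 6T sgRNA and for all 34 under the Luciferase sgRNA, where 0.0416% of 19246 and 0.0% of 20194 tested genes passed an adjusted p under 0.05. At an unadjusted p under 0.05 the authors' test listed 0 of the 34 under the 6T sgRNA (background 0.868%) and 1, SEL1L, under the Luciferase sgRNA (2.94% of the 34, background 1.22%). limma, fitted to the recovered libraries of each sgRNA, called 0 of 34 in both as well, with 0.0% of 14035 and 0.0% of 14018 genes called. At an unadjusted p under 0.05 limma listed 0 of 34 (background 2.35%) and 6 of 34 (17.6%, background 9.59%).

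The size of the differences was small under the 6T sgRNA. The authors' log2 fold changes ran from −0.22 (DERL2) to 0.34 (DNAJB9), with a median of −0.014 and a median absolute value of 0.072, beside −0.028 and 0.10 for the 14051 genes with a mean of 10 or more. Of the 34 genes, 14 had a higher and 20 a lower mean in condition B (41.2% higher, beside 42.2% of the 14051 genes). The sign was other than the deposited one for 2 of them with total reads as the size factor. It was another for 11 with a trend against transcript GC content removed. Under the Luciferase sgRNA the range was wider, from −0.73 (PPP1R15A) to 0.50 (HSP90B1), with a median of −0.059 and a median absolute value of 0.16, beside −0.0053 and 0.16 for 14087 genes. Again 14 means were higher and 20 lower in condition B (41.2% higher, beside 49.0% of the 14087 genes). The sign was another for 1 gene with total reads and for 6 with the GC trend removed.

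The 95% limma intervals give the sizes these libraries could show. Under the 6T sgRNA the unadjusted interval of the fold change lay within 1.5-fold for 30 of the 34 genes and within 2-fold for 33, DNAJB9 being the exception. Under the Luciferase sgRNA 25 lay within 1.5-fold and 32 within 2-fold, with HSP90B1 and PPP1R15A beyond. The median distance from the estimate to the end of the interval was 0.29 (6T) and 0.28 (Luciferase) on the log2 scale. It was narrowest for P4HB (0.17, 6T) and PDIA6 (0.17, Luciferase) and widest for DNAJB9 (0.80, 6T) and EIF2AK3 (0.58, Luciferase).

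**Figure D1:**
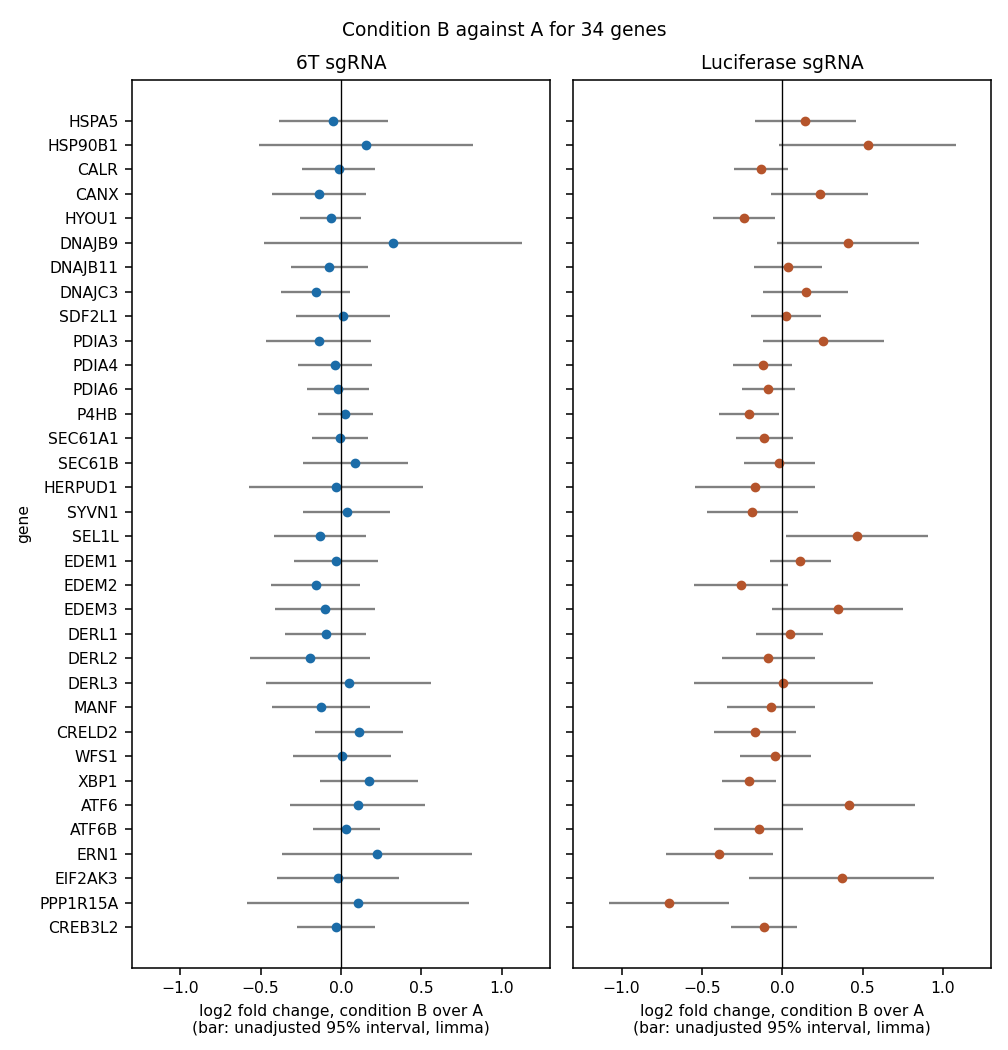
Log2 fold change of condition B over A for the 34 genes under the 6T sgRNA (left) and the Luciferase sgRNA (right), ordered by role. Points are limma estimates from 3 libraries per group and bars their unadjusted 95% intervals; all 34 bars on the left and 28 on the right cross 0, and PPP1R15A under the Luciferase sgRNA lies furthest from it.

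Levels between genes were compared per kilobase of the longest protein-coding GENCODE v29 transcript, as the mean over the 12 libraries. CALR, the lectin chaperone calreticulin, was highest at 4913 normalized reads per kb, followed by the disulfide isomerase P4HB at 3103, the membrane lectin CANX at 1951, the chaperone HSP90B1 (GRP94) at 1659 and the isomerase PDIA4 at 1615. XBP1 (1275), HSPA5 (1195), SEC61B (1076) and SEC61A1 (1052) came next. Of the sensors, ATF6B lay at 284, ATF6 at 78.2, EIF2AK3 at 31.8 and ERN1 at 24.5 per kb. DNAJB9 (24.3) and DERL3 (13.0) were the lowest of the 34. Neighbours in this order with overlapping group means were not told apart: per kb HSP90B1 ranged over the groups from 1127 to 2006 and PDIA4 from 1554 to 1728, whereas the group means of CALR (4765 to 5223) and P4HB (2942 to 3465) did not overlap. The lengths are those of 1 transcript each. Exons of SMARCB1 lie on the opposite strand of 2715 bases of DERL3, and the strand used in counting is not stated. The count of DERL3 may therefore be off, in a direction not known here. Exons of another gene overlapped 18 of the 34 genes, 17 of them on the opposite strand. PDIA3 and XBP1 have annotated pseudogenes with which reads could be shared. Only pseudogenes named as the gene symbol followed by P and a number were searched for, so others may have been missed.

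**Figure D2:**
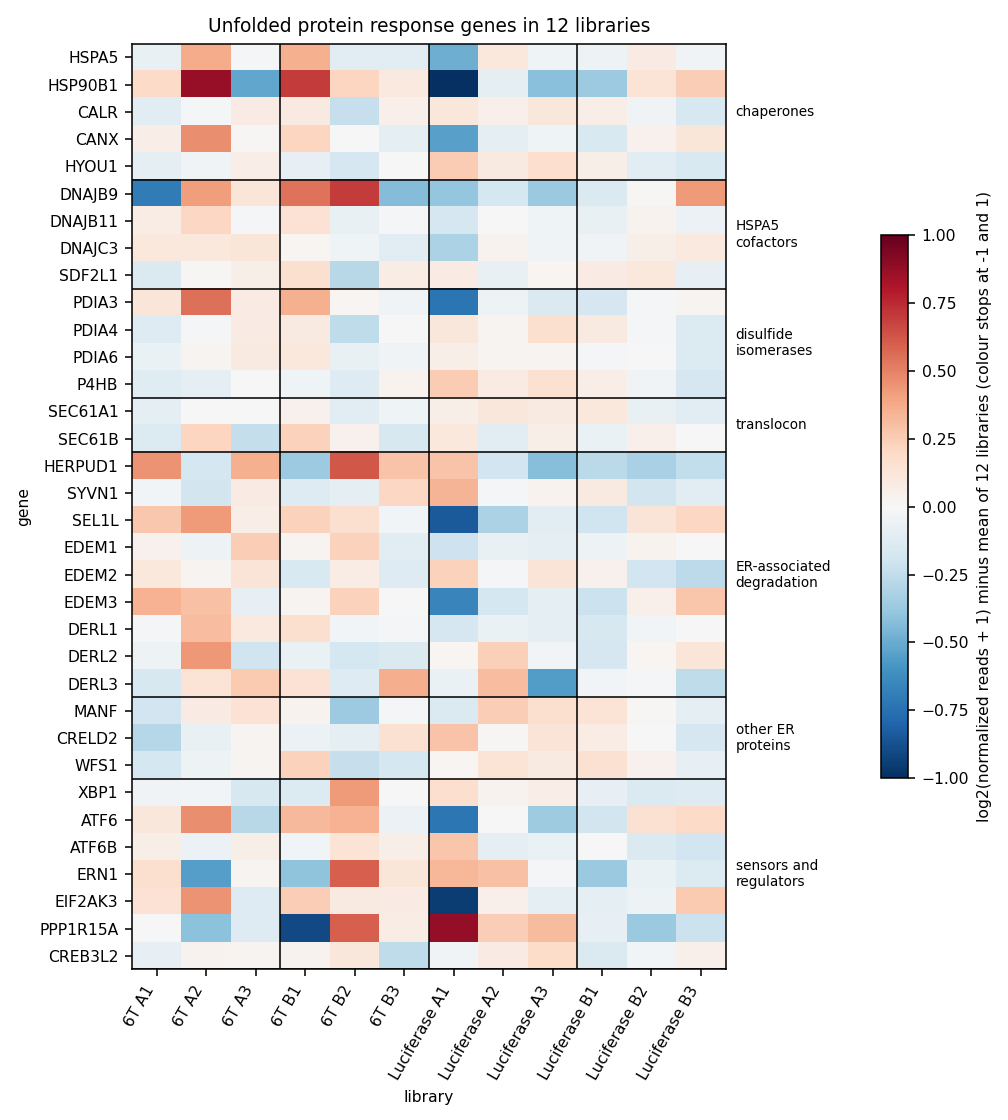
Log2(normalized reads + 1) of the 34 genes in each of the 12 libraries, minus the gene's mean over the 12, with genes in rows by role and libraries in columns by group. Most cells are pale; library Luciferase A1 shows its deepest blue for HSP90B1, EIF2AK3 and SEL1L and its deepest red for PPP1R15A.

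Chaperones bind unfolded chains in the ER lumen, and none of the 5 passed the adjusted test between conditions. CALR, the most abundant of them, had 8597, 9199 and 9868 normalized reads in the condition A libraries under the 6T sgRNA and 9924, 7933 and 9649 in condition B. Under the Luciferase sgRNA the values were 10106, 9636 and 10078 in condition A and 9766, 9116 and 8323 in condition B. All 12 values lay within 1.27-fold of each other and the groups overlapped under both sgRNAs (log2 fold changes −0.0083 and −0.13 in the authors' deposited tables). HSPA5 and HSP90B1 were singled out after their values were seen, as the textbook reporter of the response and the gene that varied most. HSPA5 had 4387, 5972 and 4585 normalized reads in the condition A libraries under the 6T sgRNA and 5895, 4287 and 4293 in condition B. Under the Luciferase sgRNA the values were 3293, 4956 and 4489 in condition A and 4462, 4895 and 4515 in condition B. The highest values were those of 6T A2 and 6T B1, which belong to different conditions, and the lowest was that of Luciferase A1. The authors' log2 fold change of HSPA5 was −0.046 (6T) and 0.12 (Luciferase), and the limma interval was −0.39 to 0.29 and −0.17 to 0.46.

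HSP90B1 had 5099, 8161 and 3111 normalized reads in the condition A libraries under the 6T sgRNA and 7239, 5179 and 4780.4 in condition B. Under the Luciferase sgRNA the values were 2121, 4200.2 and 3344 in condition A and 3459.9, 4909.9 and 5306 in condition B. The 3 libraries of a single group, 6T condition A, held both a value near the bottom and the highest of all 12, a spread of 3.85-fold over the 12 libraries. Its SD within groups, 0.49 on the log2 scale, was the largest of the 34, beside a median of 0.16 for the 34 and 0.18 for all 14009 genes fitted. The deposited mean of condition B was 1.41-fold that of A under the Luciferase sgRNA, with an unadjusted p of 0.301 in the authors' deposited test. Without library A1 the limma estimate fell from 0.53 to 0.26. Over fits without single libraries its unadjusted limma p ran from 0.011 to 0.17 (lowest adjusted p 0.29). CANX and HYOU1, which serves as a nucleotide exchange factor of HSPA5, had deposited log2 fold changes of −0.15 and −0.063 with the 6T sgRNA, and 0.22 and −0.23 with the Luciferase sgRNA.

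HSPA5 works with J-domain proteins and partners that deliver substrates to it. SDF2L1, a partner of ER J proteins, had the largest mean of the 4 measured, with 606, 676 and 698 normalized reads in the condition A libraries under the 6T sgRNA and 751, 553 and 706 in condition B. Under the Luciferase sgRNA the values were 709, 637 and 681 in condition A and 711, 721 and 634 in condition B. The groups overlapped throughout, with deposited log2 fold changes of 0.021 and 0.027. DNAJB11, which encodes an ER-lumen J protein, had deposited log2 fold changes of −0.072 and 0.035. DNAJB9, whose product also represses ERN1, was lowly expressed and varied from 38.5 to 103.3 normalized reads over the 12 libraries, with deposited log2 fold changes of 0.34 and 0.43. DNAJC3, which also inhibits EIF2AK3, was the 1 gene of 34 whose libraries did not overlap under the 6T sgRNA, being lower in condition B, where 3.73% of 14009 genes were lower without overlap, 4.19% higher, and 7.92% either. It had 539.9, 542 and 545 normalized reads in condition A and 509.6, 487 and 463 in condition B, a deposited log2 fold change of −0.16 with an unadjusted p of 0.324.

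Protein disulfide isomerases form and rearrange the disulfide bonds of new chains. P4HB, the founding isomerase of the family, had 7408, 7544 and 8022 normalized reads in the condition A libraries under the 6T sgRNA and 7819.9, 7362 and 8249 in condition B. Under the Luciferase sgRNA the values were 9607, 8526 and 8923 in condition A and 8434, 7857 and 7173 in condition B. Condition B lay below condition A in every library under the Luciferase sgRNA, with a deposited log2 fold change of −0.21. The unadjusted p in the authors' deposited test was 0.219. With single libraries left out, the unadjusted limma p ran from 0.014 to 0.10, and the lowest adjusted p was 0.29. Under the 6T sgRNA the groups overlapped, with 0.028. PDIA3, which acts on glycoproteins held by CALR and CANX, had 2038, 2743 and 1976 normalized reads in the condition A libraries under the 6T sgRNA and 2393, 1899 and 1821 in condition B. Under the Luciferase sgRNA the values were 1125, 1806 and 1689 in condition A and 1667, 1844 and 1901 in condition B. Luciferase A1 was the lowest and 6T A2 the highest of the 12. PDIA4 and PDIA6 were steadier, with ranges over the 12 libraries of 3921 to 5225 and 2381 to 2815 normalized reads, and deposited log2 fold changes of −0.032 and −0.019 (6T) and −0.12 and −0.086 (Luciferase).

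The SEC61 channel carries new chains into the ER. Its pore subunit SEC61A1 had 3590.3, 3818 and 3836 normalized reads in the condition A libraries under the 6T sgRNA and 3939, 3554 and 3718 in condition B. Under the Luciferase sgRNA the values were 3980.0, 4131 and 4057 in condition A and 4101, 3633 and 3553 in condition B. These values spanned 1.16-fold, and the SD within groups, 0.073 on the log2 scale, was the smallest of the 34 genes. The deposited log2 fold changes were −0.0043 (6T) and −0.11 (Luciferase). SEC61B, a small subunit of the same channel, ranged from 534 to 739 normalized reads, with 0.085 and −0.020.

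ER-associated degradation draws misfolded proteins out through a membrane complex of the ubiquitin ligase SYVN1 (HRD1), its partner SEL1L, HERPUD1 and the derlins, after EDEM proteins have trimmed their sugars. None of its 9 genes passed the adjusted test under either sgRNA. SEL1L had 471, 524 and 408 normalized reads in the condition A libraries under the 6T sgRNA and 458, 437 and 383 in condition B. Under the Luciferase sgRNA the values were 218, 314 and 363 in condition A and 339.6, 426 and 451 in condition B. Library A1 held the lowest value of the 12 and the groups overlapped under both sgRNAs, since A3 exceeded B1 under the Luciferase sgRNA. The deposited mean was 1.36-fold higher in condition B under the Luciferase sgRNA, with an unadjusted p of 0.0481 in the authors' deposited test (adjusted p 1). The limma estimate there was 0.46 (SE 0.19), 0.25 without library A1 and 0.15 with the GC trend removed.

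EDEM1, with the most reads of this group when length is not considered, had 1124, 1055 and 1295 normalized reads in the condition A libraries under the 6T sgRNA and 1113, 1276 and 1012 in condition B. Under the Luciferase sgRNA the values were 947, 1036 and 1026 in condition A and 1051, 1114 and 1086 in condition B. Condition B was above A in every library under the Luciferase sgRNA, by a deposited log2 fold change of 0.11, and overlapped it under the 6T sgRNA. EDEM3 had 508, 489 and 377 normalized reads in the condition A libraries under the 6T sgRNA and 406, 469 and 399 in condition B. Under the Luciferase sgRNA the values were 253, 354 and 375 in condition A and 344, 414 and 484 in condition B. Luciferase A1 was again the lowest, and the deposited log2 fold change under that sgRNA was 0.34 with an unadjusted p of 0.138. The unadjusted limma p of EDEM3 there ran from 0.040 to 0.28 with single libraries left out (lowest adjusted p 0.30). HERPUD1, a strongly stress-induced membrane protein, had 1143, 739 and 1072 normalized reads in the condition A libraries under the 6T sgRNA and 651, 1285 and 1017 in condition B. Under the Luciferase sgRNA the values were 1018, 733 and 622 in condition A and 695, 666 and 703 in condition B. Its highest value was that of 6T B2, and 6T B1, of the same group, held the second-lowest of the 12. The deposited log2 fold changes of HERPUD1 were −0.00042 and −0.20.

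DERL2, one of 3 derlins, had 271, 379 and 244 normalized reads in the condition A libraries under the 6T sgRNA and 267, 247 and 253 in condition B. Under the Luciferase sgRNA the values were 284, 331 and 274 in condition A and 249, 284 and 304 in condition B. The high mean of 6T condition A rested on library A2, and the deposited log2 fold change of −0.22 had an unadjusted p of 0.202. Without that library the limma estimate was −0.0071 in place of −0.19. DERL1 had deposited log2 fold changes of −0.10 (6T) and 0.046 (Luciferase), and DERL3 of 0.054 and −0.034. For SYVN1 they were 0.041 and −0.19, and for EDEM2 −0.15 and −0.26.

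MANF, CRELD2 and WFS1 encode ER proteins that rise in stress. MANF, an ER-lumen protein that can be secreted, had 729, 879.9 and 917 normalized reads in the condition A libraries under the 6T sgRNA and 852, 647 and 825 in condition B. Under the Luciferase sgRNA the values were 753, 987 and 929 in condition A and 914, 839.7 and 776 in condition B. No group stood apart, and the deposited log2 fold changes were −0.12 and −0.077. CRELD2 had 0.11 and −0.17. WFS1, the gene mutated in Wolfram syndrome, had 0.021 and −0.041.

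The 7 sensors and regulators had a median SD within groups of 0.30 on the log2 scale, the widest of the 7 roles, and none passed the adjusted test. XBP1, whose mRNA is the substrate of ERN1, had 2289, 2301 and 2093 normalized reads in the condition A libraries under the 6T sgRNA and 2135, 3156 and 2356 in condition B. Under the Luciferase sgRNA the values were 2640.1, 2400.1 and 2453 in condition A and 2219, 2123 and 2147 in condition B. The 6T B2 value exceeded all others, and without that library the limma estimate under the 6T sgRNA fell from 0.18 to 0.011. Under the Luciferase sgRNA every condition B library lay below every condition A library, with a deposited log2 fold change of −0.21. The unadjusted p there was 0.247 in the authors' deposited test. In limma it ran from 0.029 to 0.086 with single libraries left out (lowest adjusted p 0.29). ERN1 had 211, 129 and 192 normalized reads in the condition A libraries under the 6T sgRNA and 143, 285 and 205 in condition B. Under the Luciferase sgRNA the values were 238, 230.4 and 185 in condition A and 146, 179.9 and 171 in condition B. The same library, 6T B2, held its highest value, and without it the limma estimate under the 6T sgRNA went from 0.23 to −0.019. ERN1 did not overlap under the Luciferase sgRNA either, being lower in condition B (deposited log2 fold change −0.40, unadjusted p 0.283 in the authors' deposited test). Its unadjusted limma p there ran from 0.011 to 0.089 with single libraries left out (lowest adjusted p 0.32).

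EIF2AK3 had 160.0, 197 and 132 normalized reads in the condition A libraries under the 6T sgRNA and 171, 154 and 153 in condition B. Under the Luciferase sgRNA the values were 74.3, 150.0 and 135 in condition A and 135, 139 and 173 in condition B. Luciferase A1 held less than any other library, and the deposited log2 fold changes were −0.035 and 0.32. ATF6 had 619.9, 790.0 and 472 normalized reads in the condition A libraries under the 6T sgRNA and 717, 726 and 550.4 in condition B. Under the Luciferase sgRNA the values were 347, 569 and 447 in condition A and 504, 636 and 652 in condition B. The lowest value was again that of Luciferase A1 and the highest that of 6T A2, with deposited log2 fold changes of 0.084 and 0.39. ATF6B, the paralog of ATF6, had 772, 713 and 774 normalized reads in the condition A libraries under the 6T sgRNA and 729.5, 814 and 771 in condition B. Under the Luciferase sgRNA the values were 899, 693 and 707 in condition A and 745, 669.7 and 651 in condition B. It was steadier, and its groups overlapped, with 0.035 and −0.15. CREB3L2, a transcription factor of the same membrane-bound kind, had −0.021 and −0.12.

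PPP1R15A (GADD34) directs a phosphatase to eIF2 alpha and so undoes the block that EIF2AK3 sets. PPP1R15A had 1021, 768 and 932 normalized reads in the condition A libraries under the 6T sgRNA and 548, 1543 and 1077 in condition B. Under the Luciferase sgRNA the values were 1880.1, 1214 and 1274 in condition A and 966, 789.6 and 879 in condition B. Every condition B library was below every condition A library under the Luciferase sgRNA, whereas condition B under the 6T sgRNA held both a value below all of condition A and values above it. The deposited mean was 1.66-fold lower in condition B under the Luciferase sgRNA (log2 fold change −0.73), with an unadjusted p of 0.104 in the authors' deposited test (adjusted p 1). limma gave −0.70 (SE 0.16, adjusted p = 0.455), and −0.51 (adjusted p = 0.472) without library A1. With the GC trend removed the estimate was −0.58.

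**Figure D3:**
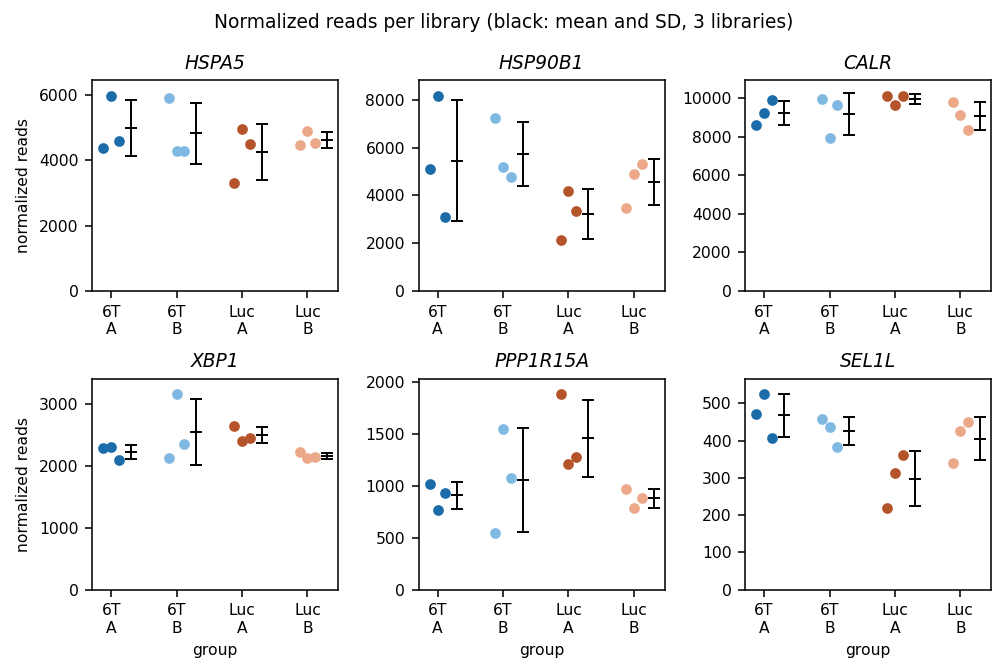
Normalized reads (vertical axes, from 0) of HSPA5, HSP90B1, CALR, XBP1, PPP1R15A and SEL1L in every library, by group. Coloured points are libraries and black bars the mean and SD of 3; HSP90B1 spans 2121 to 8161, and CALR 7933 to 10106.

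Over the 34 genes, library values did not overlap between conditions for 8 genes under the Luciferase sgRNA (background 16.0% of 14009 genes). Under the 6T sgRNA they did not overlap for 1 (background 7.92%). Whether these counts differ was not tested. DNAJB9 and EDEM1 were higher in condition B (background 6.51%), and PDIA6, P4HB, XBP1, ERN1, PPP1R15A and HYOU1 were lower (background 9.48%). None of them passed an adjusted p in either test. The count of genes at an unadjusted p under 0.05 in limma, 6 under the Luciferase sgRNA, became 3 without library A1 (5.72% of all genes in the same fit), 3 without A3 (9.62%), 2 without B2 (2.08%), 3 without B3 (2.1%) and 12 without B1 (16.7%). The share over all genes was thus also lowest without B2 and highest without B1.

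Library 6T B2 held the highest value of the 12 for 4 of the 34 genes, XBP1, ERN1, HERPUD1 and DNAJB9, and the lowest for 6, CALR, PDIA4, SDF2L1, HYOU1, MANF and WFS1, beside 9.47% and 13.5% of all genes. Library 6T B1, of the same condition, held the lowest value for PPP1R15A alone, beside 9.71% of all genes. TRIB3, a target of the PERK branch that is not among the 34, had 489.9, 1216 and 686 normalized reads in 6T condition B, and DDIT3 (CHOP), named here after its values were seen, had 155, 759.7 and 564. Library Luciferase A1 held the second-highest DDIT3 value, at 752, and the highest PPP1R15A value. Over the 34 genes, Luciferase A1 held the lowest value for 12 and the highest for 8, beside 30.3% and 23.8% of all genes, and 6T A2 held the highest for 10, beside 21.4%. The median absolute deviation from the 12-library mean was 0.25 for the 34 genes in Luciferase A1 and 0.28 for all genes, against 0.052 and 0.083 in Luciferase B2.

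The deviations of these libraries were related to the GC content of the transcripts, and the part of GC content in the differences was not tested. In Luciferase A1 genes poor in GC were low and genes rich in GC were high: Spearman's rho between transcript GC content and deviation was 0.73 across the 34 genes and 0.75 across 13258 genes, given as a description because genes share each library's preparation. In 6T A2 rho was −0.72 across the 34 and −0.64 across all. Of the 11 genes with a GC content under 45%, 10 lay below their mean in Luciferase A1, with a median deviation of −0.66, and of the 9 with 55% or more, 1 did, with a median of 0.26. These class limits were chosen after the values were seen. The order of genes in the comparison of conditions moved with GC content as well, with rho of −0.69 across the 34 genes under the Luciferase sgRNA (−0.70 across 13264 genes) and 0.38 under the 6T sgRNA (0.37 across 13284). Removing the trend made the Luciferase log2 fold change smaller in size for 23 of the 34 genes and larger for 11, and limma called 0 of them. It went for CANX from 0.23 to −0.0050 and for EDEM3 from 0.35 to 0.011, while PPP1R15A (−0.58), ERN1 (−0.36) and XBP1 (−0.19) moved less. It grew for DERL2 from −0.086 to −0.39, for PDIA6 from −0.087 to −0.18 and for SDF2L1 from 0.026 to 0.17, and it turned for DNAJC3 from 0.14 to −0.15. These examples were chosen after the values were seen.

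**Figure D4:**
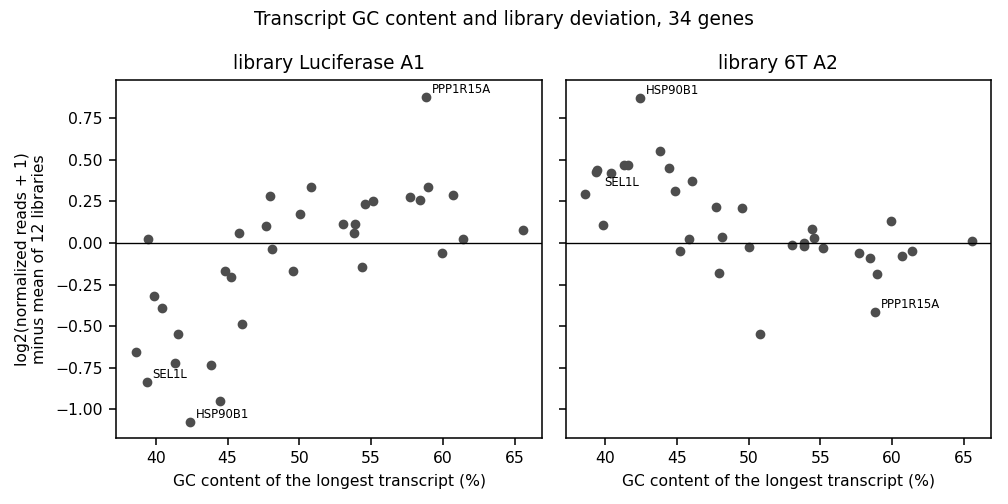
Transcript GC content (horizontal axis, percent) against the deviation of library Luciferase A1 (left) and library 6T A2 (right) from the 12-library mean of log2(normalized reads + 1), one point per gene of the 34. The cloud rises with GC content on the left and falls on the right; HSP90B1, SEL1L and PPP1R15A are labelled.

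The sgRNAs could be set against each other because both tables share one normalization, under the assumption that the letters A and B stand for the same condition in both, which is not settled. These comparisons use the same libraries as those above. Within condition A, limma called 0 of the 34 genes between the Luciferase and the 6T sgRNA (background 0.0642% of 14009 genes), and 11 (32.4%) had an unadjusted p under 0.05, beside 31.4% of all genes. Libraries did not overlap for 12 of the 34, beside 33.0% of all genes. CANX, PDIA3, DNAJC3, SEL1L, EDEM1, EDEM3 and DERL1 were lower under the Luciferase sgRNA (background 16.0%), and P4HB, XBP1, PPP1R15A, HYOU1 and SEC61A1 higher (background 17.0%). The smallest p-values were those of SEL1L (log2 difference −0.67, SE 0.17, limma adjusted p = 0.0625), PDIA3 (−0.56, SE 0.17, adjusted p = 0.0744) and P4HB (0.23, SE 0.077, adjusted p = 0.0834).

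Without Luciferase A1 the differences were −0.46 for SEL1L, −0.35 for PDIA3 and 0.19 for P4HB, and 4 genes in place of 11 had an unadjusted p under 0.05, beside 17.1% of all genes in that fit. The number was 6 without 6T A1 (24.9% of all genes), 6 without 6T A2 (20.9%) and 7 without Luciferase A3 (29.7%). Without library A2 of the Luciferase sgRNA, limma called 2 genes, PDIA3 (adjusted p = 0.046) and SEL1L (adjusted p = 0.0485), and 1022 genes in all. With the GC trend removed the differences became −0.26, −0.33 and 0.048.

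Within condition B, limma called 0 of 34 genes (background 0.0%), and 0 had an unadjusted p under 0.05, beside 5.4% of all genes. Libraries did not overlap for 0 of the 34, beside 12.9% of all genes (6.75% higher and 6.17% lower under the Luciferase sgRNA). The smallest p-values were those of HERPUD1 (−0.46, SE 0.23, adjusted p = 0.93), XBP1 (−0.22, SE 0.12, adjusted p = 0.93) and ATF6B (−0.16, SE 0.11, adjusted p = 0.947). Of the 34 genes 25 had a lower mean of log2 values under the Luciferase sgRNA, beside 7103 of 14009 genes. The median difference was −0.050, beside −0.0032 for all genes. These Luciferase libraries held 19399375 to 38076941 reads, and those of 6T held 6653753 to 8294722. Within condition B, sgRNA and depth therefore cannot be told apart. All 7 sensors and regulators were lower under the Luciferase sgRNA, from −0.30 (ERN1) to −0.0044 (CREB3L2). Without library 6T B2 the difference of XBP1 was −0.052, that of HERPUD1 −0.24 and that of PPP1R15A 0.19 in place of −0.15. The number with an unadjusted p under 0.05 was 5 without 6T B1 (8.88% of all genes in that fit), 1 without 6T A2 (5.74%) and 1 without Luciferase A1 (7.06%).

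In limma's test of whether the change from A to B differed between the sgRNAs, 0 of the 34 genes were called (background 0.0%). This test also uses the deeper Luciferase libraries of condition B, so depth cannot be told apart from the difference. At an unadjusted p under 0.05 there were 2, SEL1L and XBP1 (5.88%, background 9.4%). The difference of the log2 fold changes, Luciferase minus 6T, was 0.59 for SEL1L (95% interval 0.061 to 1.13, adjusted p = 0.485) and −0.38 for XBP1 (−0.73 to −0.028, adjusted p = 0.485). For P4HB, next by p, it was −0.23 (−0.47 to 0.0014, adjusted p = 0.485). The interval lay within 2-fold for 28 of the 34 genes and reached beyond it for HSP90B1, ERN1, EIF2AK3, PPP1R15A, DNAJB9 and SEL1L. Leaving out single libraries gave from 0 to 5 genes with an unadjusted p under 0.05. There were 0 without Luciferase A1 (4.16% of all genes), B2 (4.7%) or B3 (3.63%), and 1 without 6T A2 (6.49%) or B3 (4.87%). There were 4 without 6T B1 (14.4%) or Luciferase A2 (15.4%), and 5 without Luciferase B1 (14.9%).

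Other genes of the pathway, 51 in a separate list, were examined in the same way. In the authors' deposited test 0 of 51 passed an adjusted p under 0.05 under either sgRNA (background 0.0416% for 6T and 0.0% for Luciferase). At an unadjusted p under 0.05 there were 1 under the 6T sgRNA (1.96%, background 0.868%) and 0 under the Luciferase sgRNA (background 1.22%). The 1 gene was TXNDC5, a disulfide isomerase, which had 174, 158 and 138 normalized reads in condition A and 253, 211 and 226 in condition B under the 6T sgRNA (deposited log2 fold change 0.55, unadjusted p 0.00353, adjusted p 1). Its libraries did not overlap there, where 4.19% of 14009 genes were higher in condition B without overlap. Under the Luciferase sgRNA the deposited log2 fold change of TXNDC5 was −0.12. Next by p under the 6T sgRNA came SEC61G, the third channel subunit (−0.29), and TRIB3 (0.54). Under the Luciferase sgRNA they were SEC63, a cofactor of the channel (0.39), LMAN1, a cargo receptor for exit from the ER (0.31), and ERO1B, an oxidase that recharges disulfide isomerases (0.59). Of the 51, 19 (6T) and 24 (Luciferase) had a higher mean in condition B, with medians of −0.037 and −0.0078. These are 37.3% and 47.1%, beside 42.2% and 49.0% of all genes with a mean of 10 or more. Between the sgRNAs, limma was fitted to 50 of the 51. ATF4 was left out, because its reads had no single solution in Luciferase condition B. Its deposited mean over both conditions was 11739 (6T) and 11450 (Luciferase) normalized reads, with deposited log2 fold changes of −0.065 and −0.20. limma called 0 of the 50 within condition A and 0 within condition B. At an unadjusted p under 0.05 there were 14 within condition A (28.0%, beside 31.4% of all genes) and 2 within condition B (4.0%, beside 5.4%).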

How the data were processed

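PolyA RNA of 12 HEK293T libraries was measured. Per the submitters' processing notes, which give no versions, reads were processed with STAR, HTSeq and DESeq on hg38; strand use in counting is not given in the sources used here. For each sgRNA there is 1 table. Its mean columns, as deposited by the authors, are means of size-factor-divided read counts per condition, per the file headers. The ratio column is the authors' deposited fold change, B over A, and the log2 column its log2. The p-value columns hold the authors' deposited DESeq test and its adjusted value. Rows that name no gene held 38.59% to 42.26% of the signal and were left out.

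Whole reads per library were recovered as the single combination of 3 whole numbers, one per library, that gives a deposited mean, searched within a factor of 2 of the mean and, where none was found, over any split of it; this wider search was added after first results were seen. A single solution was found for 99.654% to 100% of genes above 0 and, over any split, for all 34 genes in all 4 groups. Genes without one held 0.0% (6T condition B) to 12.007% (Luciferase condition B) of the signal in genes. They were left out of the limma fits that used those libraries, and their part of the library read totals was filled in from the group mean. On 73435 simulated means the recovery gave the true reads for 73344, false reads for 2 and no single solution for 89. Compared with median-of-ratios factors computed over the 12 libraries together, the size factors were off by 0.0522% or less. Precision is limited by 3 libraries per group.

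limma 3.58.1 (R 4.3.3) was fitted, with its trend option for the variance, to log2(normalized reads + 1) for genes with a mean of 10 or more, with Benjamini-Hochberg adjustment over all genes fitted: 6 libraries for each sgRNA, and all 12 for comparisons between sgRNAs. Fold changes on this scale are understated for low genes. On counts simulated for 14009 genes with 200 changed 2-fold, it recovered 98.5% between sgRNAs within condition A, with 20 false calls, and 89.5% in the test of the difference, with 9. The simulated spread held no structure between libraries, so these rates do not carry over to the real ones. Transcript length and GC content are those of the longest protein-coding GENCODE v29 transcript, or of the longest transcript where a gene has no protein-coding one.

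The 34 genes, the lists, the tests and the rule for named genes were chosen with earlier results of these data known. By that rule library values are given for the gene of each role with the largest mean, not divided by length, the 3 with the smallest p in each comparison, and the 4 sensors. Alternatives were other pseudocounts (0.5 and 10), minimum means (none and 50) and size factors, each library left out, and, added after the data were seen, removal of a GC trend in the counts of called genes and the narrower read search. Protein sequences were not used here. The values of 1 marker gene of other cells are not reported here.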

Additional observations from a re-analysis of the deposited data

How the results depend on the processing

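The counts of called UPR genes were 0 in all 5 comparisons. Of 87 alternative counts, 86 stayed at 0. With single libraries left out, the comparison of the sgRNAs within condition A gave 0 to 2 called genes of the 34. The 2 were PDIA3 and SEL1L without library A2 of the Luciferase sgRNA, where 1022 of 14010 genes were called. The other 4 comparisons gave 0 of the 34 throughout. The cause was not tested. The number of all genes called within condition A depended more on the processing, with 9 in the fit reported and 14 with a pseudocount of 10. It was 63 with the narrower read search, 93 with a minimum mean of 50 and 283 with total reads as size factor. With single libraries left out it was from 0 to 1022. With the GC trend removed limma called 4 genes in all under the Luciferase sgRNA and 1 within condition B, in place of 0. Of 204 alternative log2 fold changes of single genes, 191 moved by less than the spread between libraries and 13 by more, all 13 with the GC trend removed, 12 of them under the Luciferase sgRNA; the deposited sign was another for 11 (6T) and 6 (Luciferase) genes under that setting. No paired analysis was possible because the deposited columns carry no replicate numbers. Precision differed between genes: under the 6T sgRNA the limma estimate of DNAJB9 was known only to within 0.80 on the log2 scale, and that of P4HB to within 0.17.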
